A study of Mus musculus with 6 samples.

Results

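The TAM receptors, Axl, Mertk and Tyro3, and their ligands Gas6 and Pros1 were followed in B16-F1 melanoma tumours grown in mice. The 5 genes are the named members of the family, out of 22180 genes measured, chosen by name. Where a gene has several probe sets of its own, the one selected on mean brightness over the 6 arrays stands for it, but each of these 5 genes had 1 probe set and 0 shared with another gene, so brightness decided nothing here. The measured host difference of Axl was already known when the family was chosen, so its values are a description and lend no support to anything else. B16-F1 is a pigmented melanoma line of C57BL6 origin. In the Stat2 KO group the cells were implanted in the flank of C57BL6 background mice that lack Stat2, and in the WT group in mice of that background with Stat2, and in both groups tumours were taken at day 20. There were 3 tumours per group and 1 array per tumour. The knockout is that of the host. No label says that the implanted cells were without Stat2, and since these cells and the host's are both of mouse origin, a probe set reads RNA of both. Whether each tumour came from its own mouse is not stated by the labels, which give no age either. Each p-value therefore concerns only these 6 tumours, and those of the limma fit draw also on the spread of other genes.

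TAM receptors are receptor tyrosine kinases. Their ligands are secreted proteins whose vitamin K dependent Gla domain holds phosphatidylserine on the surface of dying cells, while the other end binds the receptor, so that a ligand bridges the dead cell to the phagocyte. Gas6 binds Axl, Mertk and Tyro3, and protein S, the product of Pros1, binds Mertk and Tyro3. Macrophages use Mertk to clear dying cells, and in dendritic cells TAM signalling works together with the type I interferon receptor, through which STAT2 acts, to switch on the inhibitors Socs1 and Socs3. Axl is also known from melanoma lines, where it tends to be high when the pigment cell factor MITF is low.

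Values are log2 expression, so 1 unit is a doubling. Array medians over all probe sets were 6.08, 6.22 and 6.17 in Stat2 KO hosts, against 6.06, 6.06 and 6.13 in WT hosts, and the median gene differed by 0.021 between the groups. Stat2 itself, the check of the labels, averaged 6.42 ± 0.077 in Stat2 KO hosts, against 6.73 ± 0.053 in WT hosts (SD, n = 3 each), a difference of -0.31 (limma adjusted p = 0.532). Which stretch of the gene its probe set reads is not known here, which makes it a weak check of the labels. Pigment cell genes marked the tissue as melanoma, with the mean per array of 10 melanocyte markers 10.3 to 10.8 in Stat2 KO hosts, against 10.6 to 10.9 in WT hosts. The 1105 olfactory receptor genes, whose products detect odours, had a median of 5.21 and served as a gauge of dim signal. Axl, Mertk and Pros1 were brighter on average than 99.7%, 98.9% and 99.3% of them, and Tyro3 and Gas6 than 86.2% each, so the last 2 lay nearer the dim end. Of the genes named below, Ifi204, Havcr2, Xkr9, F2, F5, Serpina5, Gzmb, Cd3g and Myh4 had a group mean under that median, which leaves the size of their differences uncertain.

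The proximal promoters of Axl, Gas6 and Pros1 are shown because Axl and Gas6 were the members whose groups separated and Pros1 was the member with the opposite direction. Each runs 5′ to 3′ on the gene's strand, from 250 bases before to 50 after a RefSeq transcription start (build GRCm38.p6). Capitals mark GC boxes (GGGCGG on either strand, the core bound by Sp1) and, in Pros1, a match to TTCNNNGAA, the palindromic element that STAT dimers bind.
Axl: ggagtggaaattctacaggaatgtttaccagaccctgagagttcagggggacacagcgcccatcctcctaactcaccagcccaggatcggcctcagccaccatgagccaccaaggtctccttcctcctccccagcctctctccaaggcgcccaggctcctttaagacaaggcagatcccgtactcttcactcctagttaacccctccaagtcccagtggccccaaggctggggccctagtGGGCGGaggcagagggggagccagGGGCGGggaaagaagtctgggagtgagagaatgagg
Gas6: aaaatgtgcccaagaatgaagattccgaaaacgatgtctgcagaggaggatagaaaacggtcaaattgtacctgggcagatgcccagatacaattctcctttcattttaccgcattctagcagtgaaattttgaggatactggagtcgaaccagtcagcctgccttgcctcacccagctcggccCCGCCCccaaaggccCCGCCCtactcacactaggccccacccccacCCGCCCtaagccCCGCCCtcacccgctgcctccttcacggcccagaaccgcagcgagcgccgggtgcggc
Pros1: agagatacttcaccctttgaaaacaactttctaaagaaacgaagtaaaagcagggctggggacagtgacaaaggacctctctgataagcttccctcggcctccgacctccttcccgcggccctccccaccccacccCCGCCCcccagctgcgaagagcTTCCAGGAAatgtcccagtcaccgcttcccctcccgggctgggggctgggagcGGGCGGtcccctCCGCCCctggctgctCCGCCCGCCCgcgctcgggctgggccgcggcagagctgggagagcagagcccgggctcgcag
The Axl window is at chr7:25788684-25788983 on the minus strand, its start site lying 191 bases inside the gene's outer end. Those of Gas6 and Pros1 are at chr8:13494486-13494785 on the minus strand and chr16:62854057-62854356 on the plus strand. GC boxes numbered 2 in Axl, 4 in Gas6 and 5 in Pros1, and the windows of Mertk and Tyro3 held 4 and 6. Some of those in Pros1 and Tyro3 overlap one another. The start site of the Tyro3 window lies 1774 bases inside that gene's outer end. Of 32851 promoter windows, 35.7% held at least 1 GC box. The windows of the members were richer in G and C, 58.3% in Gas6 to 73.3% in Tyro3, against a median of 52.7% over all windows. The GC boxes are therefore not read as a trait of the family. TTCNNNGAA was in 8.30% of all windows and, of the 5, in Pros1 only, beginning 92 bases before the start site. The letters of AP-1 sites, TGANTCA, were in 7.81% of all windows and in 0 of the 5. A match is not a bound site, and a window without one says nothing of elements elsewhere in the gene.

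Axl, the TAM receptor with the widest spread over the arrays, was lower in tumours of Stat2 KO hosts. It read 7.19, 7.01 and 7.01 in the 3 Stat2 KO tumours, against 8.52, 8.47 and 7.84 in the 3 WT tumours. The highest Stat2 KO tumour lay below the lowest WT tumour, and within the WT group replicate 3 stood well below the other 2. The means were 7.07 ± 0.103 in Stat2 KO hosts, against 8.28 ± 0.379 in WT hosts (SD, n = 3 each). The difference was -1.21 (SE 0.179, 95% interval -1.60 to -0.82), or 2.31-fold lower in Stat2 KO hosts. In the limma fit over all genes this was the third smallest p of 22180, and its adjusted p of 0.133 did not pass 0.05. That fit called 2 genes in all, 0.00902% of those tested, and between 0 and 17 with 1 array left out, 17 of them without WT replicate 3. Exact permutation of the 6 arrays gave p = 0.1, the smallest possible with 3 against 3. Of 17 alternative settings Axl passed in 3 and did not pass in 14. Without WT replicate 3 the difference was -1.42 and passed (limma adjusted p = 0.0076). With array weights, a setting that called 257 genes, it was -1.33 (limma adjusted p = 0.0058). With the replicate number as a block the limma adjusted p was 0.0410, and with every probe set on its own it was 0.732. In bulk tumours, fewer cells that make Axl and less Axl RNA per cell cannot be told apart.

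**Figure D1:**
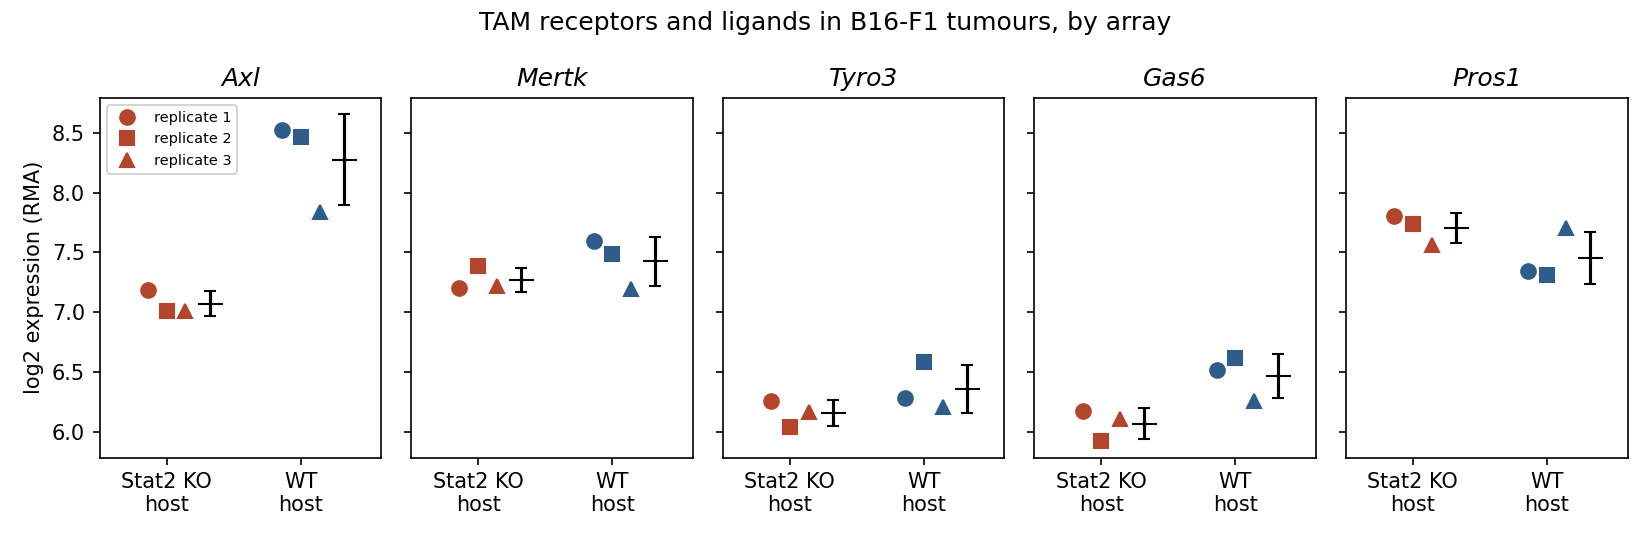
Log2 expression (RMA, vertical axis) of the 5 genes in each array, with Stat2 KO hosts in red left of WT hosts in blue, and a marker shape for each replicate number. Black bars are the group mean ± SD (n = 3). For Axl the Stat2 KO tumours sit between 7.01 and 7.19, all below the WT tumours at 7.84 to 8.52. Levels of different genes come from different probe sets and are not to be ranked.

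Mertk, the receptor that macrophages use for clearance, showed no such separation. The arrays gave 7.20, 7.38 and 7.22 in Stat2 KO hosts, against 7.59, 7.49 and 7.20 in WT hosts. The groups overlapped, because WT replicate 3 read as low as the Stat2 KO tumours. The difference was -0.16 (SE 0.144, 95% interval -0.47 to 0.16, limma adjusted p = 0.747). It ranged from -0.27 without WT replicate 3 to -0.075 without WT replicate 1.

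Tyro3, the TAM receptor best known from the nervous system, read 6.26, 6.04 and 6.16 in Stat2 KO hosts, against 6.28, 6.58 and 6.20 in WT hosts. The groups overlapped, with WT replicate 2 the highest array, WT replicate 1 barely above the highest Stat2 KO tumour and WT replicate 3 within their spread. The difference was -0.20 (SE 0.144, 95% interval -0.51 to 0.11, limma adjusted p = 0.690), and it was -0.085 without WT replicate 2. The intervals of Mertk and Tyro3 ended at -0.47 and -0.51, short of the difference of Axl. Since that difference was known when the family was chosen, this is a description with no test.

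Gas6, the ligand that binds all 3 receptors, had a lower mean in Stat2 KO hosts. It read 6.17, 5.92 and 6.11 in Stat2 KO hosts, against 6.52, 6.62 and 6.26 in WT hosts. The Stat2 KO tumours again all lay under the WT tumours, with a gap between Stat2 KO replicate 1 and WT replicate 3 that was small beside the spread within groups. The means were 6.07 ± 0.131 in Stat2 KO hosts, against 6.46 ± 0.186 in WT hosts (SD, n = 3 each), a difference of -0.40 (SE 0.144, 95% interval -0.71 to -0.085). Its unadjusted p was 0.0170, where 3.48% of all genes were lower in Stat2 KO hosts with an unadjusted p under 0.05, and its limma adjusted p was 0.509. Over the alternatives the adjusted p ranged from 0.0782, with array weights, to 0.922, and the difference from -0.50 to -0.32.

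Pros1, which encodes protein S, was the 1 member with a higher mean in Stat2 KO hosts. It read 7.80, 7.74 and 7.56 in Stat2 KO hosts, against 7.35, 7.31 and 7.71 in WT hosts. The groups overlapped through WT replicate 3, which lay among the Stat2 KO tumours, while WT replicates 1 and 2 lay below all of them. The difference was 0.25 (SE 0.149, 95% interval -0.076 to 0.57, limma adjusted p = 0.634), and it was 0.37 without WT replicate 3 (adjusted p = 0.373).

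For each of the 5 genes, WT replicate 3 was the WT tumour nearest to the Stat2 KO mean. The share of all genes for which this held was not computed, so it is not read as particular to the family. Against the mean of the other 2 WT tumours, WT replicate 3 differed by -0.65 for Axl, -0.34 for Mertk, -0.23 for Tyro3, -0.31 for Gas6 and 0.38 for Pros1. Over all genes, 49.8% were lower in WT replicate 3 than in the other 2. Leaving out this nearest tumour therefore widened the host difference of every member, to -0.27 for Tyro3 and -0.50 for Gas6 besides the values above. Among the members only Axl passed. Of the 5 members, 2 had every Stat2 KO tumour below every WT tumour (5.11% of all genes), 0 had all of them above (8.23%), and 4 had a lower mean in Stat2 KO hosts (46% of all genes). Since the family was chosen with the Axl difference known, nothing is read from these counts.

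**Figure D2:**
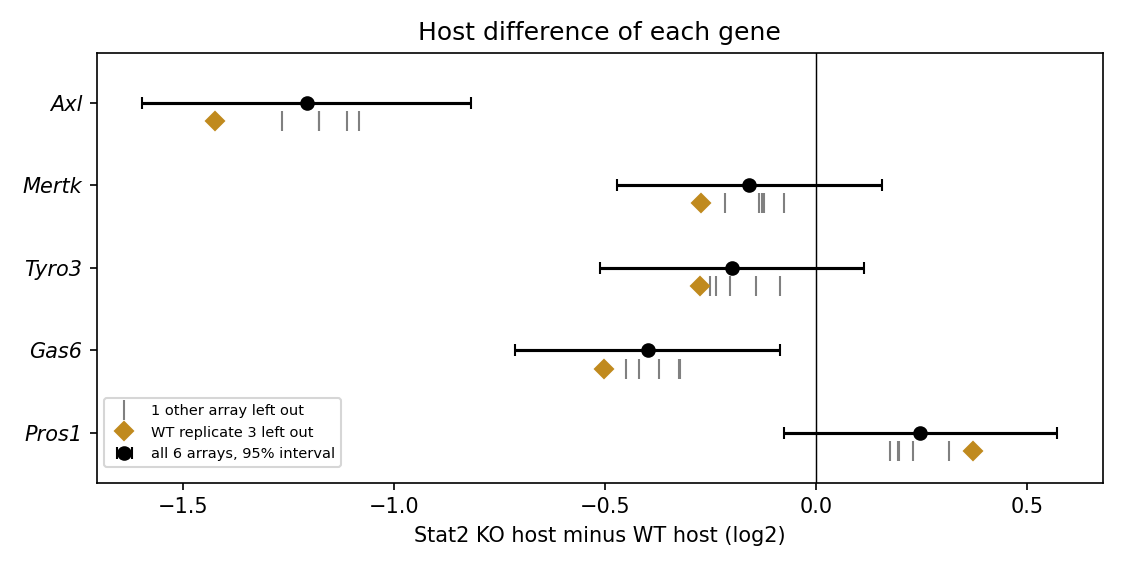
Difference in log2 units, Stat2 KO host minus WT host (horizontal axis), for each gene. Black points are the fit on all 6 arrays with its 95% interval, grey ticks the fits with 1 other array left out, and diamonds the fit without WT replicate 3. The diamond lies farther from 0 than the black point for each gene, at -1.42 for Axl and 0.37 for Pros1. This follows from WT replicate 3 being the WT tumour nearest to the Stat2 KO mean.

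Within each array, Axl was also set against the other members, which takes out any shift that an array shares between 2 genes. Axl minus Mertk averaged -0.20 ± 0.182 in Stat2 KO hosts, against 0.85 ± 0.182 in WT hosts (SD, n = 3 each), a difference of -1.05. By array it was -0.0093, -0.37 and -0.21 in Stat2 KO hosts, against 0.93, 0.98 and 0.64 in WT hosts, so WT replicate 3 stood less apart here than for Axl alone. The same difference was -1.01 against Tyro3, -0.81 against Gas6 and -1.45 against Pros1. In each of these 4 pairs the 2 groups did not overlap. The ordering follows from the choice of Axl, and is given as a description with no test.

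Axl was then placed among the other receptor tyrosine kinases, of which 53 of 55 listed were measured. Of these 14 were lower and 39 higher in Stat2 KO hosts, with a median of 0.10 against 0.021 over all genes, and 0 passed the limma threshold (2 lower and 1 higher at an unadjusted p under 0.05). The difference of Axl was number 5 from the lowest of all 22180 genes, so few genes of any kind lay below it. As a description only, none of the 53 differed downward as far as Axl. The nearest was Epha3, an ephrin receptor, at -0.69 (SE 0.148, adjusted p = 0.317), followed by Igf1r, the receptor of insulin-like growth factors, at -0.53 (adjusted p = 0.525). Epha7, another ephrin receptor, differed by 0.61 (adjusted p = 0.538) and Ret by 0.27 (adjusted p = 0.604).

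**Figure D3:**
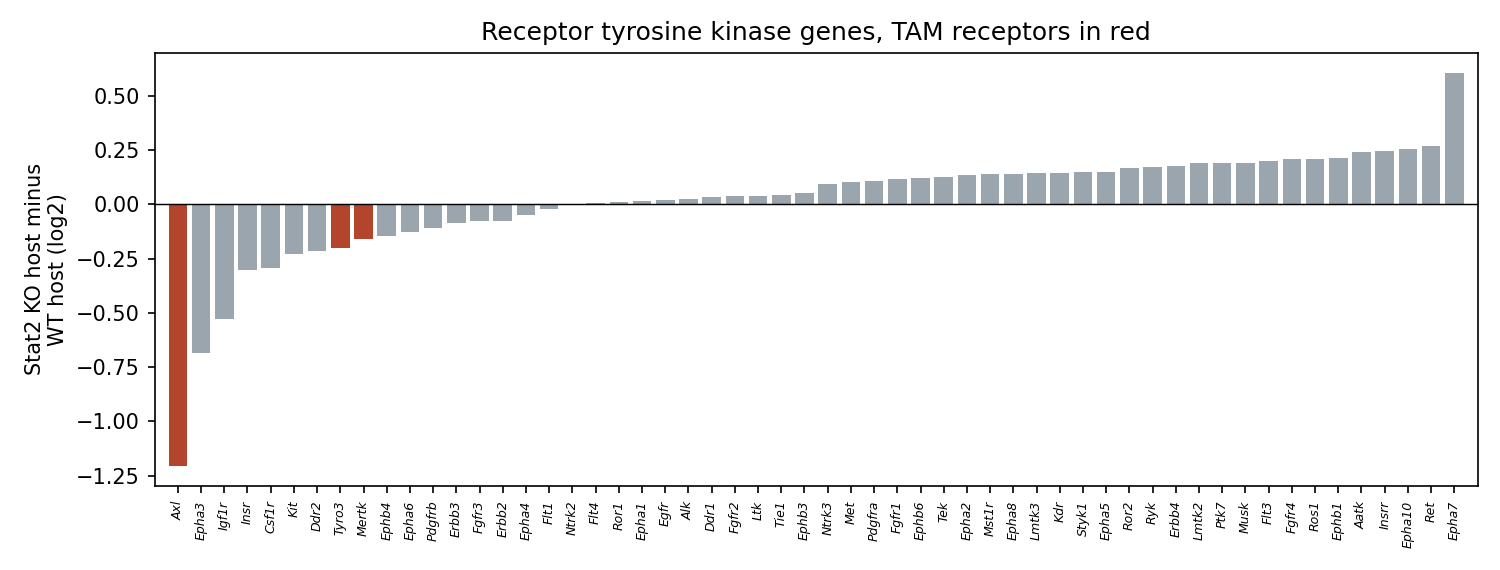
Difference in log2 units, Stat2 KO host minus WT host (vertical axis), for the 53 other receptor tyrosine kinase genes in grey and the 3 TAM receptors in red, ordered by value. Axl is at the far left at -1.21, while Tyro3 and Mertk lie among the others at -0.20 and -0.16.

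Lists of genes around the TAM receptors are described by counts and medians. At an unadjusted p under 0.05 the limma fit had 3.48% of all genes lower and 5.34% higher in Stat2 KO hosts. Every Stat2 KO tumour lay below every WT tumour for 5.11% of all genes, and above for 8.23%. Whether groups overlapped is not given for every gene named. Of the 25 lists used here, 12 kept the sign of their median under every alternative and 13 did not, so a small median gives no direction. The 13 are other TAM ligands, other phosphatidylserine receptors, engulfment, the vitamin K cycle, the protein C system, TAM adaptors, feedback inhibitors, sheddases, MITF-low melanoma genes, MITF targets, and markers of T cells, endothelium and melanocytes.

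Ligands and receptors next to the TAM system showed a mixed picture. Among other ligands reported for TAM receptors, Lgals3, which encodes galectin-3, read 7.41 ± 0.087 in Stat2 KO hosts, against 7.91 ± 0.288 in WT hosts (SD, n = 3 each). Its difference was -0.50 (SE 0.158, limma adjusted p = 0.486) and its groups did not overlap. Tub and Tulp1 differed by 0.11 and -0.064. Of 22 other phosphatidylserine receptors and bridging proteins 10 were lower and 12 higher, with a median of 0.074 and 0 past the limma threshold (2 lower and 0 higher at an unadjusted p under 0.05). The low density lipoprotein receptor relative Lrp1, which takes part in uptake of dying cells, differed by -0.36, the scavenger receptor Cd36 by -0.59 and the matrix protein Thbs1 by -0.38, with adjusted p-values from the limma fit of 0.538, 0.545 and 0.566. Havcr2, which encodes the phosphatidylserine receptor TIM-3, differed by 0.27, Timd4 by 0.19 and the bridging protein gene Mfge8 by -0.16. In this list only Lrp1, lower in Stat2 KO hosts, and Havcr2, higher, had groups that did not overlap.

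The engulfment of a dying cell needs its exposed phosphatidylserine, signals that attract the phagocyte and machinery that takes the cell in. Of 19 measured genes of the engulfment machinery 13 were lower and 6 higher, with a median of -0.073 and 0 past the threshold. Elmo1, which with Dock1 activates Rac, differed by 0.28, the endosomal gene Uvrag by -0.29, the transporter Abca7 by -0.20 and the early endosome GTPase Rab5a by -0.21. Of these only the groups of Elmo1, higher in Stat2 KO hosts, did not overlap. Among 10 genes that expose phosphatidylserine or return it to the inner leaflet, 2 were lower and 8 higher, and the median was 0.13. Both lower members, the flippase gene Atp8a1 and the scramblase gene Ano6, differed by -0.34, while Atp8a2 and Xkr9 differed by 0.28 and 0.23. Of 11 signals that call phagocytes or restrain them 9 were lower, and their median was -0.075. Sirpa, the receptor of the restraining signal CD47, differed by -0.22, the nucleotide receptor genes P2ry6 and P2ry2 by -0.15 and -0.17, S1pr1 by -0.097 and Cd47 by -0.11. Of these only the groups of P2ry6, lower in Stat2 KO hosts, did not overlap. In these 3 lists 0 genes passed the limma threshold, and 0 had an unadjusted p under 0.05.

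Gas6 and protein S need gamma-carboxylation by the vitamin K cycle. Of 18 genes of that cycle and of other Gla proteins 10 were lower and 8 higher, with a median of -0.0071. The carboxylase gene Ggcx differed by -0.19 and the vitamin K reductase gene Vkorc1 by -0.0037, both with overlapping groups, and Vkorc1l1 by -0.28. Prrg4, a transmembrane Gla protein, differed by -0.65 (SE 0.225, limma adjusted p = 0.497), also with overlap. F2 and Postn differed by 0.24 and -0.39. Of 9 partners of protein S in the anticoagulant protein C system 7 were higher, and their median was 0.073. C4bp, whose human protein carries protein S in plasma, differed by 0.47 (SE 0.193, adjusted p = 0.533), Procr by 0.14, F5 by 0.12 and Serpina5 by -0.12. In both lists 0 genes passed with limma, and at an unadjusted p under 0.05 they held 1 lower gene, Prrg4, and 1 higher, C4bp.

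**Figure D4:**
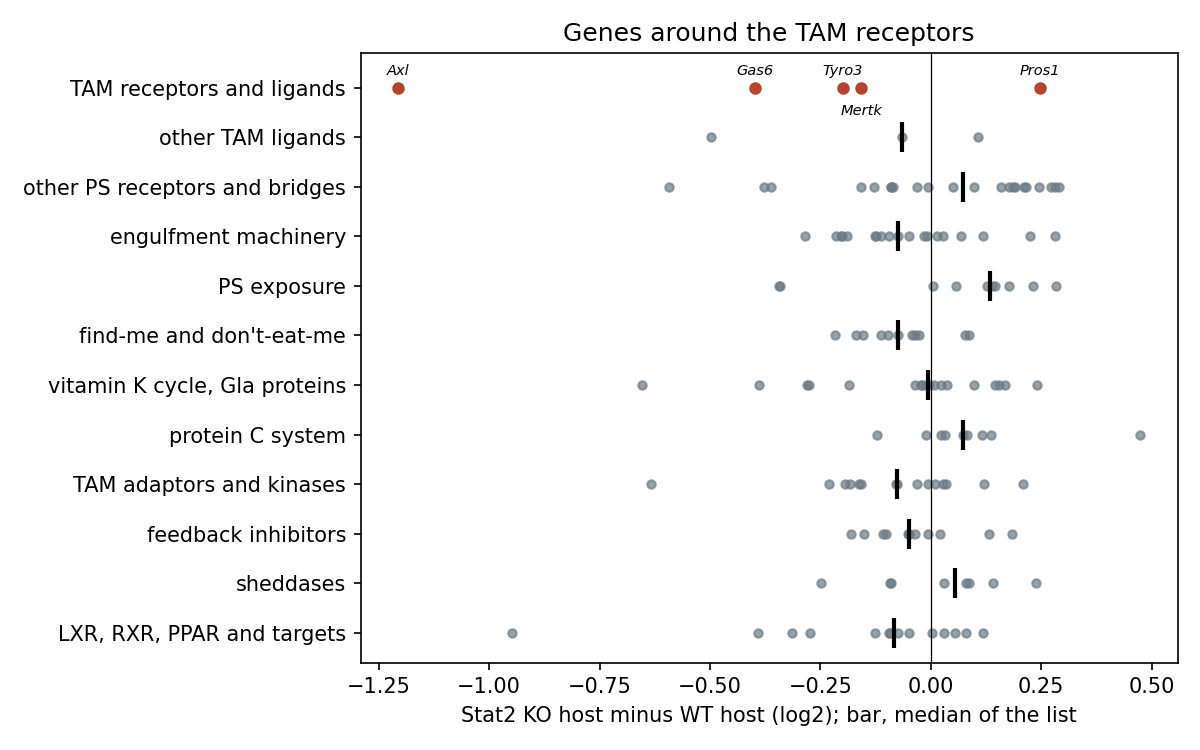
Difference in log2 units, Stat2 KO host minus WT host (horizontal axis), for the 5 members in red and for each gene of 11 lists around them in grey, with the list's median as a black bar. PS stands for phosphatidylserine. Axl, at -1.21, lies left of every gene of these lists, as it does of nearly all genes measured. The medians lie between -0.084 and 0.13.

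Signalling genes that TAM receptors are known to use were lower in 10 and higher in 5 of 15 measured members, with a median of -0.078. Plcg2, a phospholipase of immune cells, read 6.11 ± 0.309 in Stat2 KO hosts, against 6.74 ± 0.219 in WT hosts (SD, n = 3 each), a difference of -0.63 (SE 0.175, limma adjusted p = 0.460) with groups that did not overlap. Pik3cb differed by -0.23, Pik3r1 by 0.21 and Akt1 by -0.19. The groups of Pik3r1 did not overlap either, with every Stat2 KO tumour above every WT tumour. Of the 12 feedback inhibitors 9 were lower, and the median was -0.050. Socs1 differed by -0.10 and Socs3 by -0.052, and Twist1, a repressor of cytokine genes that Axl induces in macrophages, by -0.036, each with overlapping groups. Ptpn11, Cish, Socs2 and Twist2 differed by -0.18, 0.18, 0.13 and -0.15. Sheddases, which cut Axl and Mertk from the cell surface, and their partners were lower in 3 of 8 cases (median 0.054), with Adam10 at 0.24, Adam17 at -0.092, Timp3 at -0.25 and Rhbdf1 at 0.14. None of the genes of these 3 lists passed the limma threshold, and 1, Plcg2, had an unadjusted p under 0.05.

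Nuclear receptors that induce Mertk in macrophages, with targets of the LXR receptors, were lower in 9 of 14 measured members with a median of -0.084, and 0 passed with limma (2 lower and 0 higher at an unadjusted p under 0.05). Nr1h3, which encodes LXR alpha, differed by 0.056 and its target Abca1 by 0.12. The retinoid partner Rxra differed by -0.27, the transglutaminase gene Tgm2 by -0.39, and the complement genes C1qa and C1qb by -0.32 and -0.95. C1qb and C1qa are also macrophage markers.

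Among genes reported with AXL in MITF-low melanoma, 9 of 15 measured members were lower, with a median of -0.067 and 0 past the limma threshold (2 lower and 1 higher at an unadjusted p under 0.05). Tgfbi, a matrix protein gene induced by TGF-beta, differed by -0.70 (SE 0.129, limma adjusted p = 0.257) and Tnc, which encodes tenascin C, by -0.40, both with groups that did not overlap. Sox9 differed by 0.41, and Egfr, Ngfr and Yap1 by 0.022, -0.040 and 0.017. Mitf itself read 10.5 in both groups on average, with a difference of -0.046 (SE 0.176, adjusted p = 0.942). Of 16 genes, MITF and its pigment targets, 14 were lower, the median was -0.12 and 0 passed with limma or had an unadjusted p under 0.05. Ednrb differed by -0.33, Kit by -0.23, Trpm1 by -0.38 and Mlana by -0.26.

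Markers of cells that could carry the TAM genes differed between the hosts to unequal extents. Macrophage markers were lower in 15 of 19 measured genes, with a median of -0.10, 0 past the limma threshold and 5 lower at an unadjusted p under 0.05. Their mean level per array was 6.07 to 6.26 in Stat2 KO hosts, against 6.32 to 6.46 in WT hosts, without overlap, and 1 of the 19 had a mean below the olfactory receptor median. C1qb differed by -0.95 (SE 0.162, limma adjusted p = 0.195), Ms4a7 by -0.83, Cd68 by -0.61 and C1qc by -0.49. Adgre1, which encodes the macrophage marker F4/80, differed by -0.21 and Csf1r, the receptor of macrophage growth factor, by -0.29, both with overlap. Fibroblast markers were lower in 14 of 17 genes, with a median of -0.14, 0 past the limma threshold and 5 lower at an unadjusted p under 0.05. Their mean level was 6.55 to 6.85 in Stat2 KO hosts, against 6.93 to 7.14 in WT hosts, again without overlap, and 0 of the 17 had a mean below the olfactory receptor median. Pdpn, Dcn, Lum and Fbln1 differed by -0.93, -0.94, -1.21 and -0.50.

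Dendritic cell markers went the other way, higher in 9 of 10 genes with a median of 0.097, with mean levels of 6.19 to 6.50 in Stat2 KO hosts, against 6.19 to 6.35 in WT hosts. Xcr1, Flt3, Zbtb46 and Itgae differed by 0.39, 0.20, 0.17 and 0.17. NK cell markers were higher in 8 of 10 genes (median 0.20) and T cell markers in 7 of 10 (median 0.076). Of these, 2 NK cell markers and 1 T cell marker had a mean below the olfactory receptor median. Eomes, Nkg7, Klrd1 and Gzmb differed by 0.31, 0.31, 0.25 and 0.24, and Cd28, Cd3g, Lat and Cd3d by 0.46, 0.25, 0.16 and 0.15. Endothelial markers were lower in 7 of 12 genes (median -0.029), with Cdh5 at -0.45, Emcn at -0.29, Kdr at 0.15 and Esam at 0.13. Muscle, keratinocyte and platelet markers had medians of 0.14 each, with 7 of 10, 6 of 8 and 5 of 6 genes higher. After quantile normalization these medians were 0.057, 0.072 and 0.082, so their size depends on the normalization. The leading genes of these 3 lists, Myh4, Ivl and Treml1, differed by 0.60, 0.38 and 0.25. Melanocyte markers were lower in 9 of 10 genes (median -0.12). None of the genes in these 8 lists passed the limma threshold, and at an unadjusted p under 0.05 they held 1 lower gene, Cdh5, and 3 higher, Cd28, Myh4 and Ivl.

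Set against the mean of a marker list on the same array, a comparison chosen after the data were seen, Axl differed by -0.99 relative to macrophage markers and by -0.89 relative to fibroblast markers. It differed by -1.06 relative to melanocyte, -1.17 relative to endothelial and -1.33 relative to dendritic cell markers. Its groups stayed apart each time. Since the Axl difference was already known, this is given as a description with no test. A list's mean gives each marker the same weight, so how far the number of macrophages or fibroblasts takes part in the Axl difference was not tested.

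Genes of the type I interferon response, the pathway that STAT2 serves, were lower in 28 of 32 cases, and their median was -0.24. At an unadjusted p under 0.05 the limma fit had 9 of them lower and 0 higher, against 3.48% and 5.34% of all genes. Of the 32, 3 had a mean below the olfactory receptor median. The list's mean level was 6.53 to 6.75 in Stat2 KO hosts, against 6.85 to 7.08 in WT hosts. Here WT replicate 3 held the highest value, unlike Axl, Mertk, Tyro3 and Gas6, for which it was the lowest WT tumour. The 1 member past the threshold was Ifi204, at -1.75 (limma adjusted p = 0.0298), and Cmpk2, Rsad2 and Ifit1 differed by -0.91, -0.73 and -0.59. Without WT replicate 3 the list's median was -0.12.

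The 5 genes nearest to Axl over the 6 arrays were found by the root mean square distance of log2 values after each gene was centred on its own mean. They were Pdpn at a distance of 0.199, Prr5 at 0.205, Iqgap2 at 0.205, C1qb at 0.231 and Tgfb3 at 0.234. Pdpn encodes podoplanin, a surface glycoprotein of fibroblasts and lymphatic vessels, Prr5 a component of the kinase complex mTORC2, Iqgap2 a scaffold protein, and Tgfb3 a growth factor of the TGF-beta family. Pdpn read 7.81, 7.21 and 7.61 in Stat2 KO hosts, against 8.76, 8.58 and 8.09 in WT hosts, so that WT replicate 3 was its lowest WT tumour too. Iqgap2 read 7.68, 7.60 and 7.39 in Stat2 KO hosts, against 8.84, 8.54 and 7.87 in WT hosts. Host differences of the 5 were between -0.95 and -0.80, each smaller in size than that of Axl, with adjusted p-values from the limma fit between 0.195 and 0.395. The other members had ranges under 1 log2 unit over the arrays, from 0.394 for Mertk to 0.699 for Gas6, against 1.51 for Axl, and were not matched in this way.

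**Figure D5:**
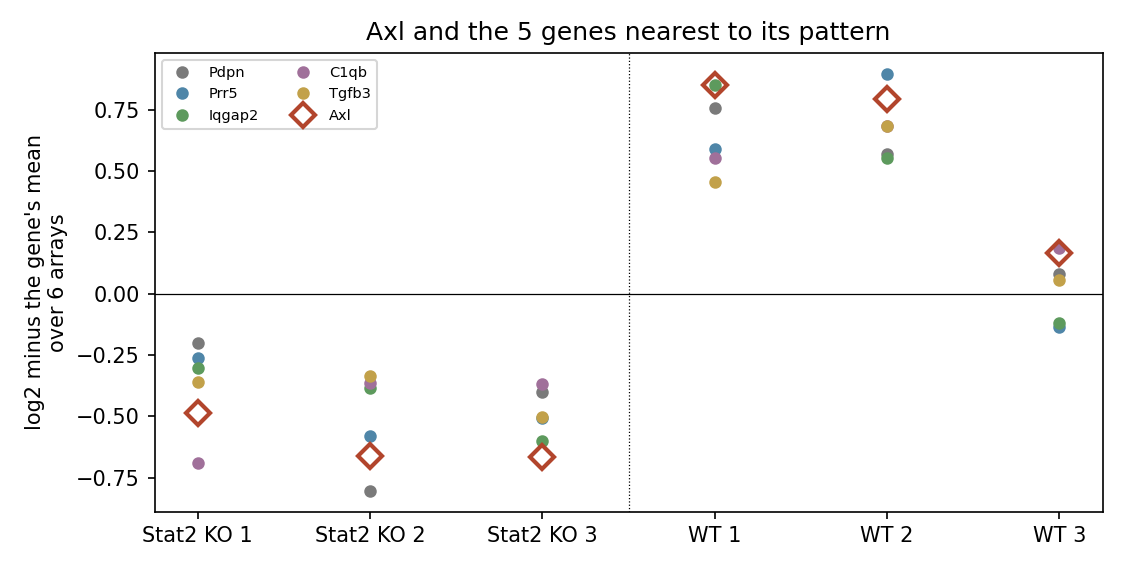
Log2 expression minus each gene's mean over the 6 arrays (vertical axis) for Axl, as open diamonds, and the 5 genes nearest to it, as points, with Stat2 KO tumours left of WT tumours. The genes were picked for this likeness. In WT replicate 3 they all lie below their values in WT replicates 1 and 2, as Axl does.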

How the data were processed

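Total RNA of 6 tumours was biotin-labelled and read on Affymetrix arrays, 1 per tumour. The deposited values are log2 expression per probe set. Per the submitters' processing notes, the authors made them by RMA in Affymetrix Expression Console 1.3.1. Of 41345 probe sets, 23521 are annotated to 1 gene, 1814 to several and 16010 to none. Taking the brightest of a gene's own probe sets gave 22180 genes. The number of arrays limits the precision, and probe-level intensities, scan dates and array batches were not analysed here.

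The contrast Stat2 KO host minus WT host was fitted over all genes with limma 3.58.1 in R 4.3.3 (lmFit, eBayes with an intensity trend, two-sided, Benjamini-Hochberg over all 22180 genes, threshold 0.05). SEs, intervals and adjusted p-values come from this fit. For single values an exact two-sided permutation test over the arrays was added. The procedure was tested on simulated data. Gene lists are described by counts and medians, older symbols being matched through the RefSeq gene table, and some genes stand in several lists. Of each list up to 4 genes with the smallest p, and known partners of the members, are named. For Axl, whose range exceeded 1 log2 unit, the 5 nearest genes were named, predicted transcripts passed over. The members and lists were chosen with earlier results of these data known. Promoter windows come from RefSeq (GRCm38.p6), matched by symbol for 5 of 5 members. One further motif that was searched is not reported here. Protein sequences were not used here.

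Other settings tried were a replicate block, quantile normalization, median centring, cyclic loess, a filter on dim genes, the mean of a gene's probe sets, every probe set on its own, eBayes without trend or robust, array weights, exact permutation and each array left out in turn.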

Additional observations from a re-analysis of the deposited data

How the results depend on the processing

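The 5 members kept their direction under every alternative run. Mertk, Tyro3, Gas6 and Pros1 stayed above the threshold in all of them, and Axl passed it with the replicate block (-1.21, adjusted p = 0.0410), with array weights (-1.33, adjusted p = 0.0058) and without WT replicate 3 (-1.42, adjusted p = 0.0076). In the other 14 of 17 alternatives Axl did not pass. Over all alternatives the adjusted p of Axl ranged from 0.0058 to 0.732. With 1 array left out the differences ranged from -1.42 to -1.08 for Axl, -0.27 to -0.075 for Mertk, -0.27 to -0.085 for Tyro3, -0.50 to -0.32 for Gas6 and 0.18 to 0.37 for Pros1. Tyro3 and Gas6 are not among the genes brighter than the median gene and have no value there. The labels do not say whether the replicate numbers pair the tumours. Deviations of same-numbered tumours from their group means correlated by 0.240, 0.0790 and 0.0302 across genes. For differently numbered tumours the values lay between -0.289 and 0.205. With so few tumours these values cannot settle whether the numbers pair them. The replicate block called 3 genes, where 2 were called without it, and changed no other call of a member. The count of called genes was 0 after quantile normalization, after cyclic loess and with every probe set on its own, 1 without the eBayes trend, 257 with array weights, and between 0 and 17 with 1 array left out. The cause of these changes was not tested.

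List medians that moved by more than the spread between replicates were these. After quantile normalization the median was 0.052 for the other receptor tyrosine kinases, -0.19 for macrophage markers and -0.0072 for T cell markers. After median centring it was -0.00097 for other phosphatidylserine receptors, -0.15 for engulfment, 0.058 for phosphatidylserine exposure, -0.15 for find-me and restraining signals, -0.082 for the vitamin K cycle, -0.16 for nuclear receptors, -0.0020 for the protein C system and 0.027 for the kinases. After cyclic loess it was -0.092 for the vitamin K cycle, 0.017 for the protein C system, 0.033 for the kinases, -0.20 for macrophage markers and -0.025 for T cell markers. Among genes brighter than the median gene it was -0.089 for other phosphatidylserine receptors, 0.066 for phosphatidylserine exposure, -0.094 for the vitamin K cycle, 0.037 for the kinases, -0.31 for macrophage markers and -0.39 for fibroblast markers. With array weights it was 0.032 for other phosphatidylserine receptors, -0.20 for TAM adaptors, -0.077 for sheddases and -0.16 for nuclear receptors. With 1 array left out the ranges were -0.0095 to 0.074 for other phosphatidylserine receptors, 0.026 to 0.16 for T cell markers, -0.12 to 0.0063 for engulfment, -0.32 to -0.20 for fibroblast markers, -0.14 to -0.00023 for nuclear receptors, -0.18 to 0.11 for other TAM ligands, 0.045 to 0.17 for phosphatidylserine exposure, 0.014 to 0.12 for the protein C system, 0.051 to 0.092 for the kinases, -0.081 to 0.064 for sheddases and -0.33 to -0.12 for the interferon response.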
